A study of Mus musculus with 128 samples.

Results

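The comparison described here was between the kidneys of 30-month-old and 24-month-old mice. It used 8 libraries, 4 at each age, out of 128 in the series, and covered the 15625 genes that passed a filter on low counts in the kidney. All mice were untreated wild-type C57BL/6J males. The series sampled 8 tissues at 6, 15, 24 and 30 months, and the 16 kidney libraries of those 4 ages shared 1 estimate of the spread. The frozen organ was pulverised whole before RNA was extracted, so the libraries mixed all cell types of the kidney, and fewer cells of a type cannot be told apart from less RNA per cell. The labels number the replicates of an age 1 to 4 without saying that each number is a separate mouse, so the p-values measure the spread between these samples, which may be technical.

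The kidney filters blood in the glomerulus, whose podocytes form the filter, and recovers most of the filtrate in the proximal tubule, a segment rich in mitochondria and in carriers of sugars, amino acids, phosphate and organic ions. The loop of Henle, the distal convoluted tubule and the collecting duct then adjust salt, water, acid and calcium. In mice many proximal tubule genes are set by androgens and differ between the sexes. With age rodent kidneys are known to gather leukocytes, including clusters of B and T cells, and tubule cells that carry injury markers such as lipocalin 2 (Lcn2) and kidney injury molecule 1 (Havcr1).

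The 8 libraries held 13.28 to 23.33 M recovered reads. Defining markers of the organ were abundant in all 8: normalised values of Slc34a1, the phosphate carrier of the proximal tubule, ran from 52659 to 82630, those of Umod, the uromodulin of the thick ascending limb, from 43197 to 56303, and those of Aqp2, the water channel of the collecting duct, from 1638 to 2599. Libraries 3 and 4 of 30 months stood apart. Their median rank correlation with the other 15 kidney libraries was 0.9772 each, against 0.9855 to 0.9898 in the other 6. Replicate 3 of 30 months held the highest of the 8 values for 20.8% of genes and the lowest for 26.9%, where an even split would give each library an equal share. The median standard deviation per gene on the log2 scale was 0.14 at 24 months and 0.18 at 30 months, and it was larger at 30 months for 64.8% of genes. Many of the results that rest on these libraries, though not all, are given with and without them.

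A single gene passed an adjusted p of 0.05 (limma-trend, Benjamini-Hochberg over all genes), which is 0.0064% of the genes tested. It was Litaf, which encodes a small membrane protein of late endosomes and lysosomes first described as induced by lipopolysaccharide. Its normalised values, reads divided by the library's size factor, were 437, 477, 452 and 451 in the 24-month libraries and 633, 576, 658 and 579 in the 30-month libraries. All 4 values at 30 months lay above all 4 at 24 months. Litaf rose by 0.43 on the log2(value + 1) scale (SE 0.058, 95% interval 0.30 to 0.55, adjusted p = 0.0181), or 1.34-fold. At younger ages its range was 377 to 415 at 6 months and 480 to 482 at 15 months, so no other kidney library reached the 30-month level. The log2 change was between 0.39 and 0.45 under each of the 19 alternatives tried. The call was lost under 7 of them, among them without replicates 3 and 4 of 30 months, where the log2 change was 0.41 and the adjusted p 0.115.

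No gene passed the threshold downward, and no gene passed it both with and without replicates 3 and 4 of 30 months. At an unadjusted p under 0.05 there were 858 genes with higher values at 30 months (5.49% of those tested) and 935 with lower values (5.98%). All 4 libraries at 30 months lay above all 4 at 24 months for 367 genes (2.35%) and below them for 450 (2.88%). The median log2 change over all genes was -0.000199. The 95% interval had a median half-width of 0.24, and for 13805 genes (88.4%) it excluded a 2-fold change in either direction.

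**Figure D1:**
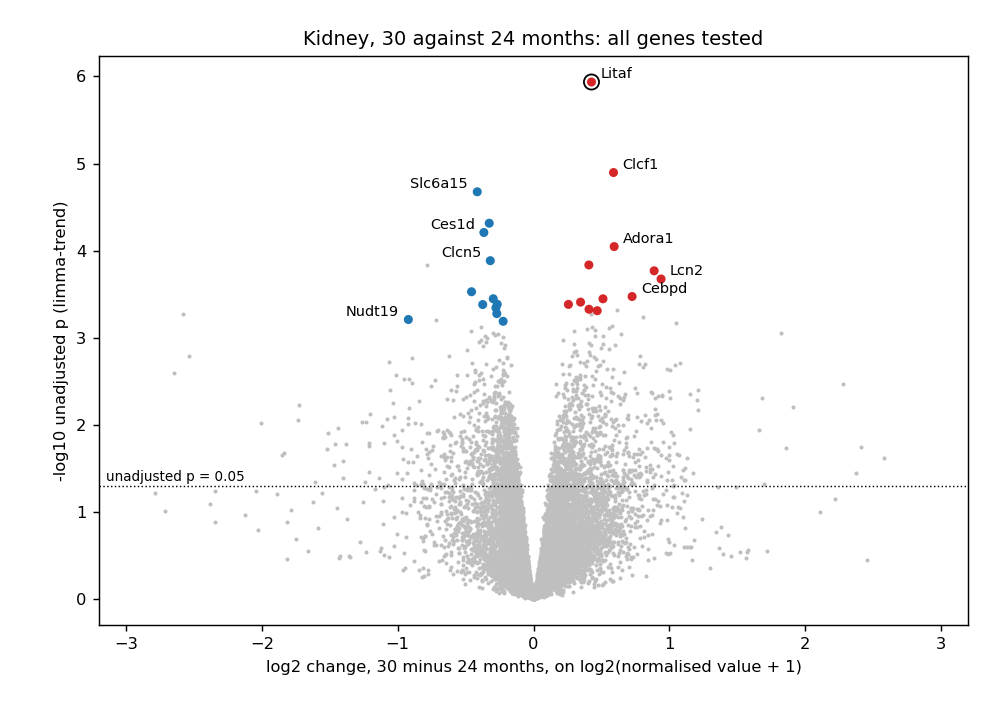
Log2 change at 30 against 24 months (horizontal axis, difference of means of log2(normalised value + 1), 4 libraries per age) against -log10 of the unadjusted p (vertical axis) for the 15625 genes tested; coloured points are the 24 named genes, red for higher and blue for lower values, and the dotted line marks an unadjusted p of 0.05. Litaf, circled, is the gene past an adjusted p of 0.05, and most genes lie within 1 log2 unit of 0.

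The genes nearest to the threshold were named by a rule: the 12 in each direction with the smallest p among those with at least 50 reads on average and no overlap between the ages. None but Litaf passed, and their values are given as a description. Clcf1, a cytokine of the interleukin 6 family, had values of 89.1, 92.6, 108 and 101 at 24 months and 133, 153, 154 and 150 at 30 months. Its log2 change was 0.59 (SE 0.097, adjusted p = 0.0991). Adora1, the A1 adenosine receptor, had values of 101 to 117 at 24 months and 147 to 189 at 30 months, with a log2 change of 0.59 (SE 0.12). For both genes the 30-month values lay above every library of the 3 younger ages except that Adora1 reached 148 in 1 library of 15 months.

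Lcn2, the iron-binding lipocalin that injured tubule cells secrete, had values of 231, 130, 182 and 202 at 24 months and 413, 345, 311 and 340 at 30 months. The ages did not overlap, and the range was 28.3 to 53.7 at 6 months and 56.3 to 89.8 at 15 months. The log2 change was 0.94 (SE 0.20, 95% interval 0.52 to 1.36, adjusted p = 0.301), or 1.92-fold. It was 1.05 without replicates 3 and 4 of 30 months, so the size of the difference did not rest on those libraries. Arg2, the mitochondrial arginase, had a log2 change of 0.89 with its highest value, 193, in replicate 3 of 30 months, and 0.64 without replicates 3 and 4. Cebpd, a transcription factor of the acute-phase response, had values of 79.5 to 94.5 at 24 months and 133 to 183 at 30 months. The other higher genes of this set had log2 changes of 0.26 to 0.51. They were Golm1 (a Golgi membrane protein), Muc1 (a mucin of the apical membrane of distal nephron cells), Myof (a ferlin of the plasma membrane), Rasa3 (a GTPase-activating protein), Acsf2 (an acyl-CoA synthetase) and Midn.

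Among genes with lower values, Slc6a15, a neutral amino acid carrier, had values of 443, 486, 446 and 488 at 24 months and 341, 369, 305 and 386 at 30 months. Its log2 change was -0.41 (SE 0.071, adjusted p = 0.11), and its values at 6 and 15 months, 545 to 622, were higher than at either later age. Ces1d, a carboxylesterase, had values of 4999 to 6110 at 24 months and 4055 to 4650 at 30 months. Clcn5, the endosomal chloride and proton exchanger of the proximal tubule whose loss causes Dent disease, had values of 2039 to 2166 at 24 months and 1466 to 1866 at 30 months, a log2 change of -0.32 (SE 0.065). Hnf4a, a transcription factor that maintains the proximal tubule programme, had values of 12551, 14185, 14344 and 13874 at 24 months and 11583, 11565, 12292 and 11572 at 30 months. The Hnf4a difference was small, -0.22 on the log2 scale (SE 0.054, adjusted p = 0.317), and was -0.25 without replicates 3 and 4. Nudt19, an androgen-dependent gene of the proximal tubule, had a log2 change of -0.92 with its lowest value, 2997, in replicate 3 of 30 months, and -0.56 without replicates 3 and 4. The others, with log2 changes of -0.46 to -0.27, were Slc16a9 (a carrier of the monocarboxylate family), Maco1, Cdh2 (N-cadherin, the cadherin of proximal tubule cells), Mgam (maltase-glucoamylase of the brush border), L3mbtl2, Lrrc28 and Ncbp1 (the large subunit of the nuclear cap-binding complex).

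**Figure D2:**
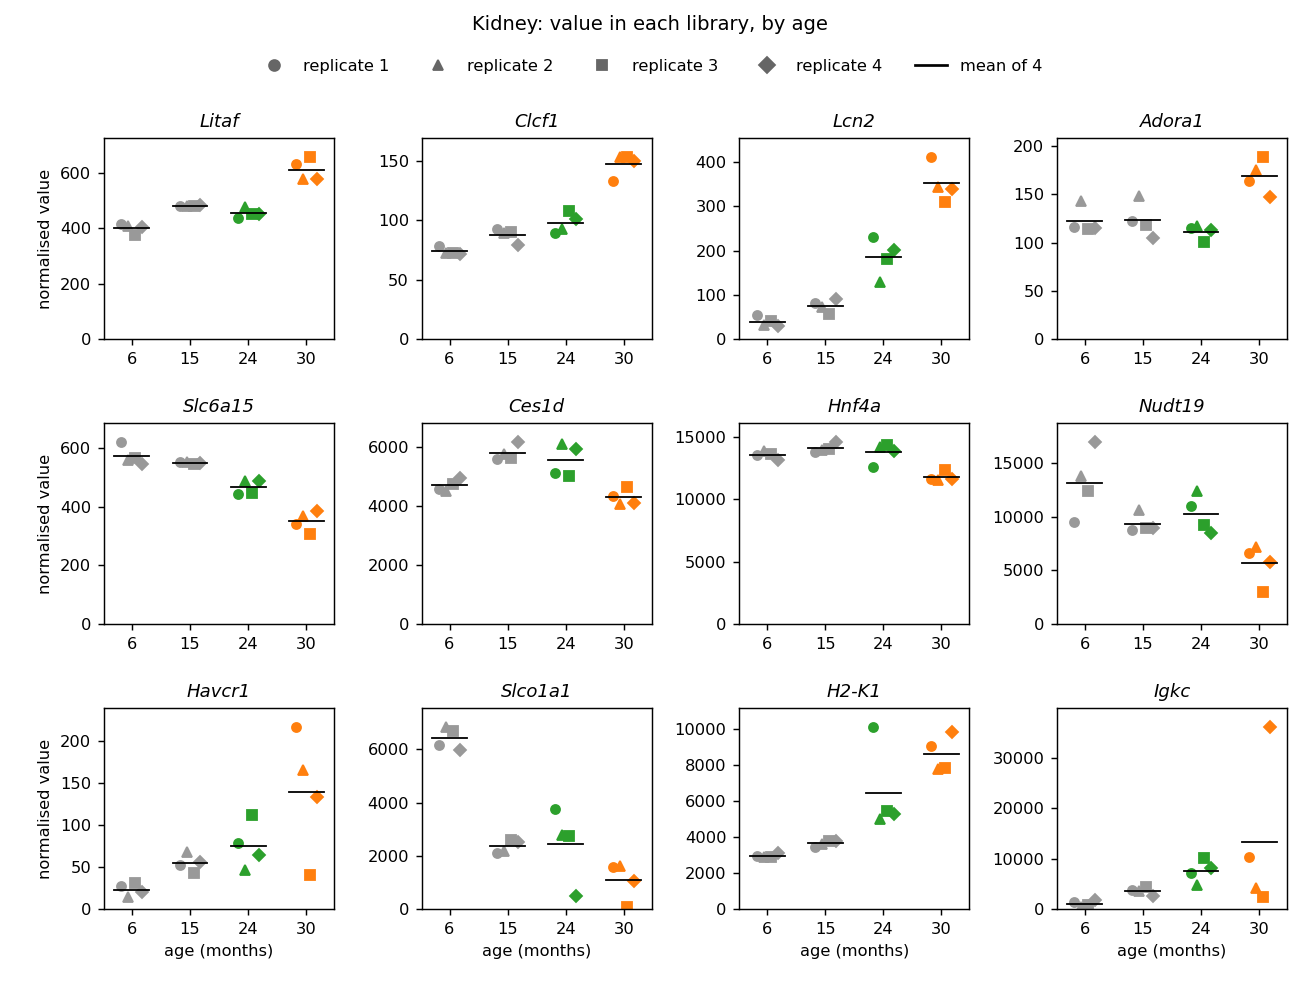
Normalised value (vertical axes, from 0, a scale of its own for each gene) of 12 genes in each of the 16 kidney libraries by age in months (horizontal axes); symbols give the replicate, orange marks 30 months, green 24 months and grey the younger ages, and black bars are means of 4. Litaf, Clcf1, Lcn2, Slc6a15, Ces1d, Hnf4a and Nudt19 do not overlap between 24 and 30 months, whereas Havcr1, Slco1a1, H2-K1 and Igkc each have a library that lies apart from the others of its age.

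Gene groups were described with lists of 43 pathways and cell types, by the number of members at an unadjusted p under 0.05 beside the 5.49% and 5.98% of all genes, since no member of any list passed the adjusted threshold. Of the 28 tubule injury genes, 10 were higher at that level and none lower, 22 had positive log2 changes, and the median change was 0.23 (0.17 without replicates 3 and 4 of 30 months, where 8 were higher). The mean level of the list was 0.20, 0.24, 0.13 and 0.34 log2 units above the 24-month mean in the 4 libraries of 30 months and -0.19 to 0.09 in those of 24 months. For 5 of them, among which were Krt18, Krt20, Lcn2 and Vcam1, all 30-month libraries lay above all 24-month libraries. Vcam1, an adhesion molecule of endothelium and injured tubule cells, had values of 484, 388, 522 and 512 at 24 months and 578, 549, 560 and 907 at 30 months. Krt18, a keratin of simple epithelia, had values of 192 to 252 at 24 months and 273 to 294 at 30 months. Spp1, the secreted phosphoprotein osteopontin, overlapped between the ages, with values of 11152, 11749, 12780 and 14964 at 24 months and 17609, 15183, 13981 and 18653 at 30 months and a log2 change of 0.37. Cp, the ferroxidase ceruloplasmin, also overlapped, with 1343 to 1986 against 1852 to 2596. Havcr1 did not separate the ages. Its values were 78.9, 46.8, 111 and 63.9 at 24 months and 217, 166, 40.5 and 134 at 30 months. Replicate 3 of 30 months was the lowest of these 8 libraries, and the Havcr1 log2 change was 0.72 (SE 0.40, adjusted p = 0.488) with all libraries and 1.39 without replicates 3 and 4.

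The nephron segments differed in how many of their genes had lower values at 30 months. In the proximal tubule list 3 of 30 members were higher and 7 lower at an unadjusted p under 0.05, with a median log2 change of -0.11 that was 0.021 without replicates 3 and 4 of 30 months. Slc6a19, the main neutral amino acid carrier of the brush border, had a log2 change of 0.53, with values of 3543 to 5100 at 24 months and 4283 to 7680 at 30 months. All 11 genes of the distal convoluted tubule had negative changes, with a median of -0.16, and 4 were at an unadjusted p under 0.05. The list lay at -0.24, -0.24, -0.32 and -0.05 in the libraries of 30 months and at -0.12 to 0.09 at 24 months, so replicate 4 of 30 months overlapped the younger age. The median was -0.21 without replicates 3 and 4. Slc12a3, the thiazide-sensitive sodium chloride cotransporter, had values of 16414, 17030, 17682 and 20732 at 24 months and 14993, 15964, 15346 and 15563 at 30 months, without overlap, a log2 change of -0.21. Pvalb, the calcium-binding parvalbumin of the same segment, had a log2 change of -0.74 and Calb1, calbindin D28K, of -0.27. The lists for the loop of Henle, the principal and intercalated cells of the collecting duct, podocytes and endothelium had at most 2 members in either direction at that level, and absolute medians of 0.11 or less. The medians for podocytes and intercalated cells, 0.11 and 0.073, were -0.039 and -0.056 without replicates 3 and 4. Kl, the antiageing hormone and FGF23 coreceptor klotho, had values of 9802 to 11793 at 24 months and 7235 to 11196 at 30 months, a log2 change of -0.17, and Umod had 43197 to 56303 against 44627 to 50568, a log2 change of -0.05.

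Replicate 3 of 30 months carried a pattern of its own in proximal tubule genes. The list of 16 androgen-dependent and male-biased kidney genes lay 1.78 log2 units under the 24-month mean there (level -1.78), against -0.18, -0.05 and -0.38 in replicates 1, 2 and 4, and 13 of the 16 genes were at their lowest of the 8 libraries in it. Kap, the kidney androgen-regulated protein, had values of 162308, 173249, 28953 and 151032 in the 4 libraries of 30 months, against 155595 to 212545 at 24 months. Slco1a1, an organic anion transporter, had values of 1589, 1617, 65.6 and 1057 at 30 months. Slc22a7, another organic anion transporter, had values of 685, 567, 558 and 383 at 24 months and 361, 454, 29.9 and 283 at 30 months. With all libraries 8 of the 16 genes were lower at an unadjusted p under 0.05 and the median log2 change was -0.60. Without replicates 3 and 4 of 30 months 1 was, Nudt19, and the median was -0.11. The 20 organic ion transporters, which overlap that list, showed the same library: the level was -1.03 in replicate 3 and -0.31 to -0.03 in the others, and 14 of 20 genes were lowest in it. Of these transporters 8 were lower and 1 higher at an unadjusted p under 0.05, with a median of -0.21. Without replicates 3 and 4 of 30 months 1 was lower and 2 higher, with a median of -0.04.

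Genes of fatty acid oxidation moved the other way in that library. The list of 25 targets of PPARA, the nuclear receptor that drives fat burning in fasting, lay at 0.83 in replicate 3 and at -0.15 to 0.07 in the other libraries of 30 months, and 21 of the 25 genes were highest in it. Cyp4a14, a fatty acid hydroxylase induced by PPARA, had values of 3629, 2870, 27823 and 2020 at 30 months. The glucocorticoid response list, which includes metallothioneins, lay at 0.75 in replicate 3, with 10 of 12 genes highest there, and at -0.41, -0.13 and 0.32 in replicates 1, 2 and 4. The median of that list was 0.11 with all libraries and -0.18 without replicates 3 and 4.

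A weaker form of the same pattern was present at 24 months in replicate 4. There the male-biased list lay at -0.43, with 14 of 16 genes at their lowest of the 4 libraries of that age, and the PPARA list at 0.32. For 16 of the 25 PPARA genes the highest pair among the 8 libraries was replicate 3 of 30 months and replicate 4 of 24 months, a pairing seen for 5.27% of all genes. Slco1a1 was 474 in that 24-month library against 2736 to 3754 in the other 3. Cyp4a14 was 5173 there against 568 to 1400. Both ages therefore held a library with low male-biased and high PPARA target genes, and the labels give nothing by which these libraries differ from the others of their age.

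Replicate 4 of 30 months was the high library for leukocyte genes. The list of B and plasma cells lay 2.07 log2 units above the 24-month mean there, against 0.49, -0.28 and -1.04 in replicates 1 to 3, and 17 of its 20 genes tested were highest in it. Igkc, the constant region of the immunoglobulin kappa chain, had values of 7095, 4800, 10059 and 8209 at 24 months and 10247, 4175, 2469 and 36256 at 30 months. The Igkc log2 change was 0.11 (SE 0.61, adjusted p = 0.963), so the ages could not be told apart while the libraries of 30 months differed widely among themselves. Cd22, an inhibitory receptor of B cells, was 308 in replicate 4 and 22.4 to 28.6 in replicates 1 to 3. Cxcl13, the chemokine that draws B cells into follicles, was 449 in replicate 4 and 74.4 to 183 in the other 3. T and NK cell genes lay at 1.13 in replicate 4 and 0.25 to 0.38 in replicates 1 to 3, macrophage genes at 1.08 and -0.09 to 0.23, and the chemokines of lymphoid tissue at 1.06 and -0.26 to 0.19. The median log2 change of the chemokine list was 0.21 with all libraries and 0.043 without replicate 4.

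Other leukocyte lists had mostly positive log2 changes with all libraries, and no member passed the adjusted threshold. Of the 20 T and NK cell genes tested, 19 had positive log2 changes, 5 were higher and 1 lower at an unadjusted p under 0.05, and the median was 0.52, or 0.29 without replicates 3 and 4. Cd8a, the CD8 coreceptor of cytotoxic T cells, had values of 20.9, 17.2, 28.4 and 17.4 at 24 months and 27.5, 65.5, 34.8 and 49.5 at 30 months, with an adjusted p of 0.329 (limma-trend). Of the 22 macrophage genes 21 had positive changes and 3 were higher at that level, with a median of 0.32. That median was 0.22 without replicates 3 and 4, 0.10 without replicate 4 alone and 0.51 without replicate 3 alone. The B and plasma cell median, 0.28 with all libraries, was -0.19 without replicate 4 of 30 months. C3, the central complement component, had values of 1438, 1092, 1410 and 1895 at 24 months and 1750, 1650, 2726 and 3696 at 30 months, a log2 change of 0.70 (SE 0.24) that was 0.25 without replicates 3 and 4. C4b, of the classical complement pathway, had 463 to 1357 against 742 to 1227, and Gpnmb, a glycoprotein of lysosome-rich macrophages, 19.1 to 34.1 against 18.4 to 52.7, with log2 changes of 0.19 and 0.30. Cdkn2a, the senescence marker that encodes p16, was too low to be tested, with values of 1.16 to 3.82 at 24 months and 0.935 to 4.08 at 30 months.

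**Figure D3:**
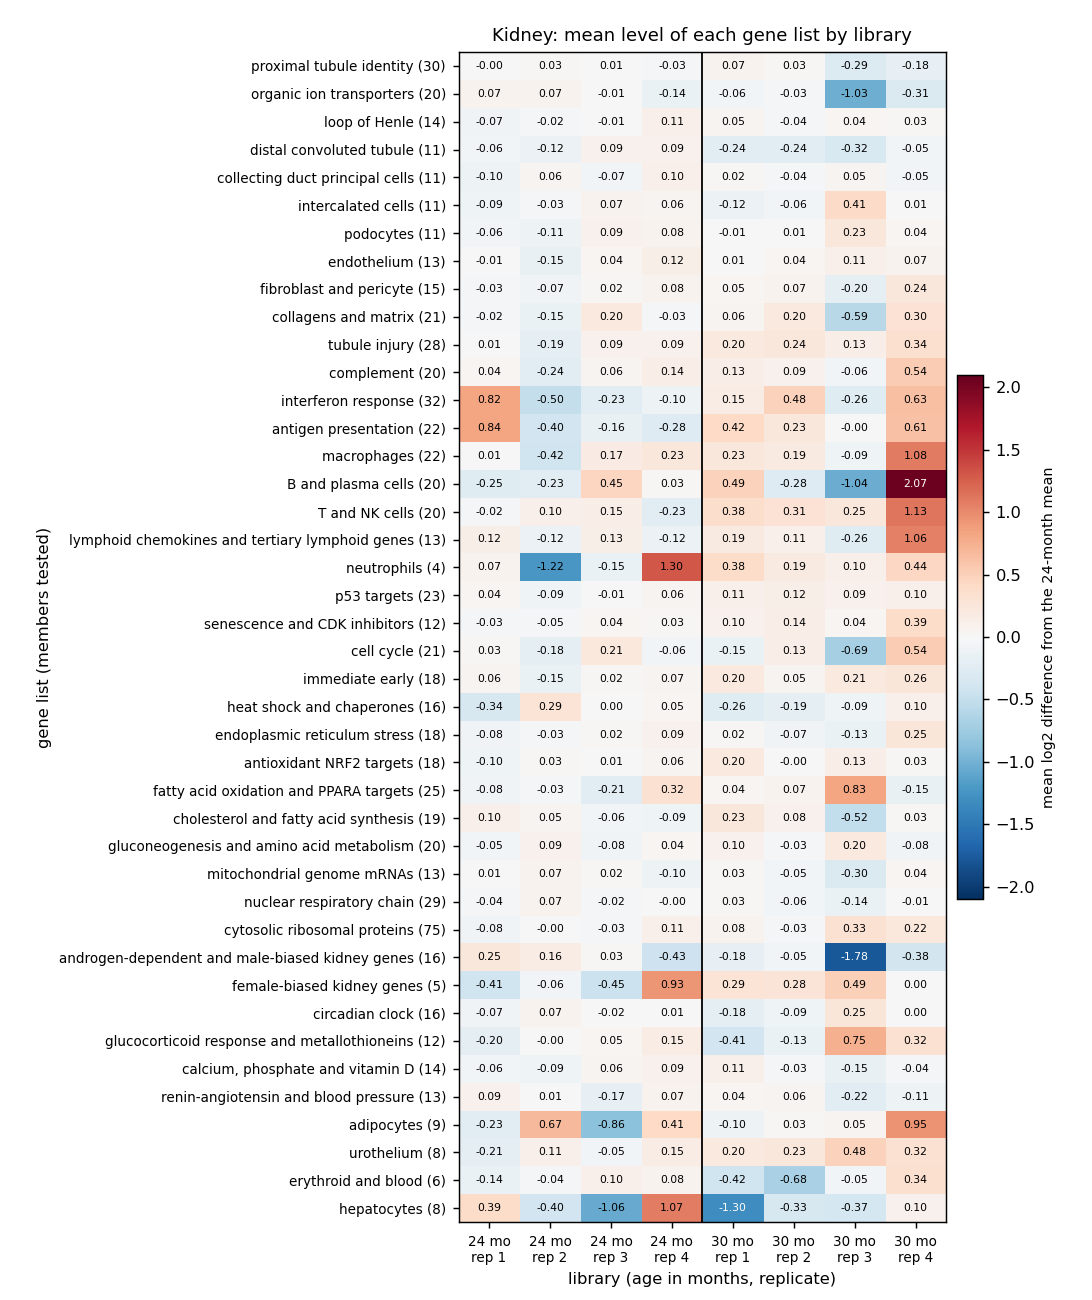
Level of each gene list (rows, with the number of members tested) in each library of 24 and 30 months (columns): the mean over members of log2(normalised value + 1) minus the member's 24-month mean, in log2 units, red for above and blue for below. Replicate 3 of 30 months stands low for male-biased genes (-1.78) and high for PPARA targets (0.83), replicate 4 of 30 months high for B and plasma cells (2.07), and replicate 1 of 24 months high for the interferon (0.82) and antigen presentation (0.84) lists.

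The interferon and antigen presentation genes depended on a library of the younger age. Type II interferon acts on promoters through gamma-activated sites and, with factors such as IRF1, through interferon-stimulated response elements, and it induces guanylate-binding proteins, immunity-related GTPases and the machinery of MHC class I presentation. Replicate 1 of 24 months lay at 0.82 for the interferon list and at 0.84 for antigen presentation, against -0.50 to -0.10 and -0.40 to -0.16 in replicates 2 to 4. With that library included, 6 of 22 antigen presentation genes and 1 of 32 interferon genes were higher at an unadjusted p under 0.05, with medians of 0.34 and 0.28. Without it the medians were 0.61 and 0.54, and without replicate 2 of 24 months, the lowest library of that age for both lists, they were 0.17 and 0.13. In the fit without replicate 1 of 24 months, 34 genes passed an adjusted p of 0.05. Of these, 30 were higher at 30 months, 0.19% of the genes tested, and 4 lower (Slc6a15, Ces1d, Maco1 and Uroc1).

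Of the 30, 9 were on the antigen presentation list and 5 on the interferon list. Of the other 16, 4 were guanylate-binding proteins (Gbp4, Gbp6, Gbp7, Gbp9) and 4 immunity-related GTPases (Irgm1, Irgm2, Tgtp1, Tgtp2), and Litaf and Clcf1, described above, were also among them. Replicate 1 was the highest library of 24 months for 28 of the 30 genes and the highest of all 8 for 25. All 4 libraries of 30 months lay above replicates 2 to 4 of 24 months for each of the 30, which the choice of these genes favours. H2-K1, a heavy chain of MHC class I, had values of 10144, 5014, 5465 and 5270 at 24 months, 9049, 7792, 7823 and 9827 at 30 months, and 2893 to 3792 at the younger ages. Igtp, an immunity-related GTPase, had values of 3099, 402, 427 and 333 at 24 months and 748, 761, 707 and 935 at 30 months. With all libraries the log2 change of Igtp was 0.27 (SE 0.46, adjusted p = 0.855). Without replicate 1 of 24 months it was 1.02 (adjusted p = 0.00182). Irf1 had values of 1345, 367, 463 and 319 at 24 months and 686, 624, 562 and 730 at 30 months, with log2 changes of 0.32 and, without replicate 1, 0.77 (adjusted p = 0.00985). None of the 30 passed without replicates 3 and 4 of 30 months.

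Because these genes moved together across libraries, the bases before their transcription starts are shown for 6 of them, each holding a motif. Promoters were matched by symbol to RefSeq (build GRCm38.p6) for 22 of the 30 genes, and each run below is the 120 bases just before the start, 5′ to 3′ on the strand of the gene. Capitals mark 2 motifs searched on both strands: the gamma-activated site TTCNNNGAA, and an interferon-stimulated response element read as GAAA, any 2 bases, GAAA.
Igtp, chr11:58199436-58199555, plus strand: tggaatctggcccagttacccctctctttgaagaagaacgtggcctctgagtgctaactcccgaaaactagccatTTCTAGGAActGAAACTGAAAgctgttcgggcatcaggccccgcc
Irgm2, chr11:58214857-58214976, plus strand: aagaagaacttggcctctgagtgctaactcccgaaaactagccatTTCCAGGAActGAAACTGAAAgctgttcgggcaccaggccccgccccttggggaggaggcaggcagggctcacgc
Tgtp2, chr11:49064213-49064332, minus strand: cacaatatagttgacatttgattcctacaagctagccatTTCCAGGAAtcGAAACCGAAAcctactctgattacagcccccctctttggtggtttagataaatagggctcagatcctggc
Gbp7, chr3:142530216-142530335, plus strand: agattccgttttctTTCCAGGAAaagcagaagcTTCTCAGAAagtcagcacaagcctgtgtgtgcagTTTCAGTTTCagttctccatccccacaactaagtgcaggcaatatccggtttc
Gbp2, chr3:142620543-142620662, plus strand: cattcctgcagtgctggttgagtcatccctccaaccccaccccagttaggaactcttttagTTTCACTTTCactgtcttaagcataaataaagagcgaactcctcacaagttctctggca
Irf1, chr11:53769894-53770013, plus strand: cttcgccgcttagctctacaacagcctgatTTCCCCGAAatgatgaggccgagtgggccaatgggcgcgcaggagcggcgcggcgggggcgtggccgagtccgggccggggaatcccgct

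In Igtp, Irgm2 and Tgtp2 a gamma-activated site lay next to a response element, whereas Gbp2 had only the response element and Irf1 only the gamma-activated site within the window. RefSeq gives Irf1 a second start, whose 250 bases hold none of the motifs. A gene was counted where any of its starts held the motif, among these genes and among all genes alike. Over the 250 bases before the start, 11 of the 22 matched genes held the response element and 7 the gamma-activated site. Of the antigen presentation genes, B2m held the response element, whereas H2-K1, H2-D1, H2-Q4, H2-Q6, H2-Q7, H2-DMb1 and Tap1 held no exact match to any of the motifs. Looser forms of the motifs were not searched, so these genes may hold variants of them. H2-K1, H2-D1, H2-Q4, H2-Q6 and H2-Q7 each hold the run tttcacttct, which matches the response element only in part. The Igtp and Irgm2 runs share a long stretch of nearly the same bases, so their matches are not independent. Among all 11536 tested genes with a promoter the shares were 3.38% and 7.38%. The other motif searched, the NF-kappaB site, was found in 1 of the 22 and in 0.442% of all. Of the 12 named genes with higher values in the fit with all libraries, 9 had a promoter and none held any of the 3 motifs, Litaf and Lcn2 included. A match is a description of the letters, and binding was not measured.

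**Figure D4:**
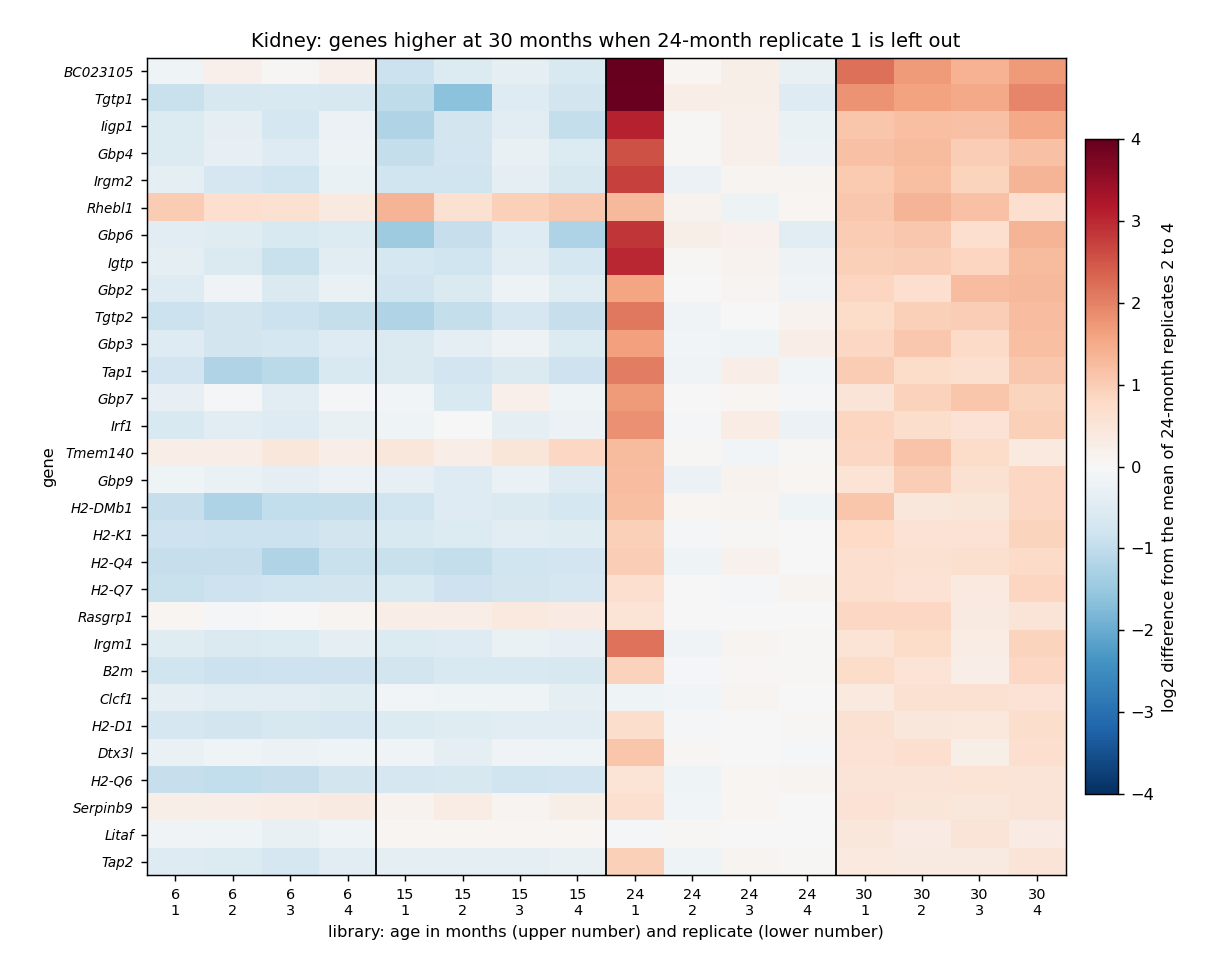
Log2 difference of each library from the mean of replicates 2 to 4 of 24 months (colour, log2(normalised value + 1), values above 4 share the darkest red) for the 30 genes (rows) that were higher at 30 months when replicate 1 of 24 months was left out, in all 16 kidney libraries (columns, age in months above, replicate below). Replicate 1 of 24 months is the highest of the 8 libraries of 24 and 30 months for 25 of the 30 genes, and the 30-month columns lie above replicates 2 to 4 of 24 months in every row.

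The 75 cytosolic ribosomal protein genes all had positive log2 changes, from 0.062 to 0.28 with a median of 0.15, and 32 were at an unadjusted p under 0.05. The difference was again carried by libraries 3 and 4. The list lay at 0.08 and -0.03 in replicates 1 and 2 and at 0.33 and 0.22 in replicates 3 and 4, replicate 3 was the highest of the 8 for 64 of 75 genes, and without replicates 3 and 4 the median was 0.024 with no gene at that level. Rpl12, of the large subunit, had values of 2445, 2483, 2479 and 2758 at 24 months and 2868, 2580, 3517 and 3488 at 30 months. Messages of the nuclear-encoded respiratory chain had a median of -0.038, with 3 of 29 genes lower at an unadjusted p under 0.05, and those of the mitochondrial genome a median of -0.063, with none of 13. Without replicates 3 and 4 these medians were -0.018 and 0.016, and no gene of either list was at that level. Collagens and matrix genes had a median of -0.013 with 2 of 21 higher at that level (0.10 with 5 higher without replicates 3 and 4), with a level of -0.59 in replicate 3 and 0.06 to 0.30 in the other libraries of 30 months. Col1a1, the alpha 1 chain of type I collagen, had values of 458, 517, 121 and 657 at 30 months and 393 to 580 at 24 months. Lox, the lysyl oxidase that crosslinks collagen, had values of 49.7 to 72.7 at 24 months and 84.6, 94.4, 222 and 107 at 30 months, a log2 change of 1.05 that was 0.66 without replicates 3 and 4.

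Among the stress lists, p53 targets had 3 genes higher and 1 lower of 23, with a median of 0.069, and senescence genes 3 higher of 12, with a median of 0.19 (4 higher and a median of 0.093 without replicates 3 and 4 of 30 months). Cdkn1a, which encodes the cell cycle inhibitor p21, had values of 144, 165, 170 and 184 at 24 months and 173, 211, 311 and 218 at 30 months. The ages overlapped, and the log2 change was 0.43 (SE 0.20, adjusted p = 0.428), or 0.21 without replicates 3 and 4. Cdkn1b, which encodes p27, had values of 499 to 589 at 24 months and 605 to 742 at 30 months, without overlap. Cell cycle genes had none of 21 at an unadjusted p under 0.05 (2 lower without replicates 3 and 4), and heat shock genes 1 in each direction of 16. Of the 16 heat shock genes 14 had negative changes, with a median of -0.14 (-0.23 without replicates 3 and 4). Replicate 2 of 24 months was the highest of the 8 libraries for 14 of them, at a level of 0.29, and without it the median was -0.023. The cell cycle list lay at -0.69 in replicate 3 of 30 months, where 14 genes were lowest, and at 0.54 in replicate 4, where 17 were highest. Its median was -0.031 with all libraries, -0.25 without replicate 4 and 0.19 without replicate 3. Of 16 clock genes 1 was higher and 3 lower at that level, with a median of 0.042, or -0.055 without replicates 3 and 4. The clock list lay at 0.25 in replicate 3 of 30 months and at -0.18 to 0.004 in the other libraries of that age. Among its members Nr1d1, the repressor REV-ERBA, had a log2 change of 0.75 and Cry1, another repressor of the clock, of -0.83. The hour of collection is not given in the labels, and its part in these differences was not tested.

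Markers of tissues that can be carried over with the kidney were measured beside these groups. The 8 adrenal cortex genes summed to 29.0 to 34.1 normalised reads at 24 months and 28.1 to 46.3 at 30 months, with Cyp11b2 and Nr5a1 at 0 in all 8 libraries. Urothelial genes summed to 309 to 362 at 24 months and 393 to 530 at 30 months, and 1 of 8 was higher at an unadjusted p under 0.05. Adipocyte genes summed to 1110 to 1796 and 1216 to 2040, with 2 of 9 higher and 1 lower. Hepatocyte genes summed to 905 to 1998 and 684 to 1071, with 1 of 8 lower, or 2 without replicates 3 and 4 of 30 months. Erythroid genes summed to 11579 to 14263 and 7461 to 16485, and none of the 6 tested was at that level with all libraries. Without replicates 3 and 4, 5 of the 6 were lower and the erythroid median went from -0.26 to -0.63, with levels of -0.42 and -0.68 in replicates 1 and 2. No member of the last 4 lists was at 0 throughout. The adipocyte level was 0.95 in replicate 4 of 30 months, the library with high leukocyte genes, and -0.10 to 0.05 in the other 3. The part of carried-over tissue in the results was not tested.

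The late change in the kidney was then set against that in Liver and Lung, by testing the difference between the log2 changes in a joint fit. Against Liver 3 of 12805 genes passed an adjusted p of 0.05 (0.0234%). Nt5e, the ecto-5'-nucleotidase CD73, had log2 changes of -0.62 in Kidney and 1.01 in Liver, a difference of -1.63 (SE 0.26, adjusted p = 0.0108), and the difference was -1.32 and no longer called without replicates 3 and 4 of 30 months (adjusted p = 0.113). Osbpl3, an oxysterol-binding protein, had log2 changes of -0.0077 in Kidney and -1.81 in Liver (adjusted p = 0.0145 with and 0.0147 without those libraries). Cfd, the complement protease adipsin, had log2 changes of 0.69 in Kidney, where its values at 30 months were 280 to 699, and -4.24 in Liver, where they were 0 to 6.92 (adjusted p = 0.0145 with and 0.199 without, where the difference was 4.55 in place of 4.93). For Osbpl3 and Cfd the difference thus came mainly from the liver.

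Against Lung 274 of 14654 genes passed (1.87%), 41 with a higher and 233 with a lower change in Kidney. In the 41 genes the median change was 0.31 in Kidney, positive for all 41, and -0.25 in Lung, negative for all. Choosing genes by the difference between the tissues favours opposite signs. In Lung alone 314 of 17112 genes passed at 30 against 24 months, 292 higher and 22 lower, against 1 of 15625 in Kidney. The 41 included 3 of the 26 tubule injury genes and 5 of the 75 cytosolic ribosomal protein genes tested in both tissues, and the 233 included 4 of the 13 mitochondrial genome messages. Lcn2 differed by 1.44 (0.94 in Kidney and -0.50 in Lung, adjusted p = 0.0209), Krt19 by 0.68 and Prom1 by 0.60. Golm1 differed by 0.57 (adjusted p = 0.00296), and Clcf1, Muc1 and Myof, named above, were also among the 41. Thbs3, a thrombospondin, differed by 0.88, Scg5, a secretory chaperone, by 1.89 and Bcam, a laminin receptor, by 0.37. Of the 233 genes with a lower change in Kidney, 223 had negative changes in Kidney, with a median over all 233 of -0.13, and all had positive changes in Lung, with a median of 0.36. They were led by Bmi1, a Polycomb subunit (-0.15 and 0.53), mt-Atp8 (-0.37 and 1.92), Lin7c (-0.21 and 0.36), Ube2d3, a ubiquitin-conjugating enzyme (-0.15 and 0.51), and Vma21, an assembly factor of the proton pump (-0.20 and 0.81). Without replicates 3 and 4 of 30 months 77 genes passed, 8 higher and 69 lower, and without replicate 2 of 24 months 122. Golm1 and Bmi1 passed without replicates 3 and 4, whereas Lcn2 had an adjusted p of 0.06 with a difference of 1.55.

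**Figure D5:**
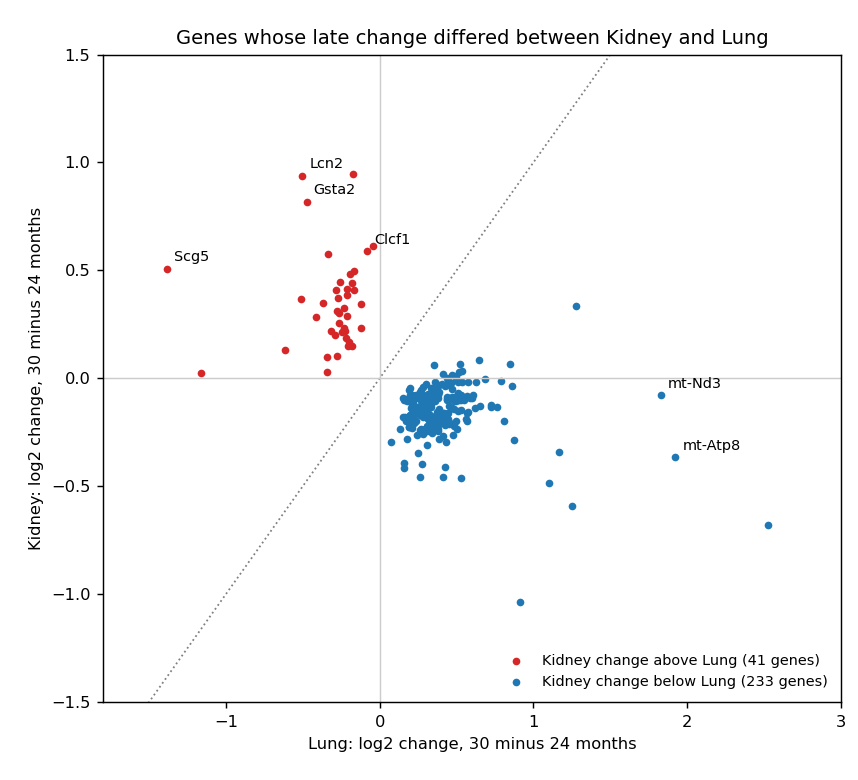
Log2 change at 30 against 24 months in Lung (horizontal axis) and in Kidney (vertical axis) for the 274 genes whose change differed between the tissues at an adjusted p under 0.05; red marks the 41 genes with the higher change in Kidney and blue the 233 with the lower, and the dotted line marks equal change. The red genes all have positive changes in Kidney and negative ones in Lung, which the choice of genes by their difference favours, with Lcn2 at 0.94 in Kidney.

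For scale, the same fit gave 780 genes past the threshold at 24 against 15 months, 446 higher and 334 lower, and 75 at 15 against 6 months. It gave 3020 genes at 30 against 15 months, and 4427 at 30 against 6 months, where 24 against 6 months gave 1660. All of these contrasts but 15 against 6 months share libraries of 24 or 30 months with the late one, and no difference between them was tested. At 24 against 15 months Lcn2 rose by 1.29 on the log2 scale (adjusted p = 0.00353, limma-trend), whereas the log2 difference was -0.08 for Litaf (adjusted p = 0.437) and -0.04 for Hnf4a (adjusted p = 0.73), neither past the threshold. Without replicates 3 and 4 of 30 months, 1380 genes (8.58% of 16092) were at an unadjusted p under 0.05, against 1793 of 15625 with all libraries, and none passed the adjusted threshold.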

How the data were processed

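Libraries came from a stranded mRNA kit, per the labels' protocols. The submitters' processing notes name the build GRCm39 and the tools FastQC, STAR, RSEM and DESeq2; no version or annotation is given there. Values are a size-factor-normalised signal (reads over 1 factor per library), which the authors deposited as 1 table per tissue of 55285 gene symbols. Dividing each column by its smallest value above 0 gave whole reads for 100.0% of kidney values (tolerance 0.01), which were used for depth, the filter and count models.

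Genes were kept by filterByExpr (minimum count 10), and log2(value + 1) was fitted with limma-trend (limma 3.58.1, R 4.3.3) with 1 mean for each of the 4 ages; p-values were adjusted by Benjamini-Hochberg. Kidney was set against Liver and Lung in joint fits. Fold changes are on the log2(value + 1) scale and understate those of low genes. Scripts were tested on simulated data. The members and lists were chosen with earlier results of these data known, so no list is independent evidence. Named genes were 12 per direction (at least 50 reads, no overlap, no Gm or Rik symbols or immunoglobulin segments), 8 per direction past the threshold with and without replicates 3 and 4 of 30 months (none passed), up to 4 genes of each list, a panel of 14 genes and 5 per direction in each comparison with another tissue. No replicate pair looked like a copy: chi-square per degree of freedom was 4.48 to 48.29. Alternatives were edgeR 4.0.16, DESeq2 1.42.0, voom weights, other scaling, filters and pseudocounts, a replicate block, and leaving out libraries. Some items of the lists are not reported here.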

Additional observations from a re-analysis of the deposited data

Results flagged for a closer look

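Of 158 sets of 4 values examined (36 genes and 43 lists at 2 ages), 6 held a library whose gap to its neighbour exceeded Dixon's 95% critical value; chance gives about 1 in 20. Replicate 3 of 30 months was high for Arg2 (193, others 93.5 to 110), Cebpd (183, others 133 to 141) and Hnf4a (12292, others 11565 to 11583). Replicate 4 of 30 months was high for Rasa3 (351, others 256 to 265), for the level of the T and NK cell list (1.13, others 0.25 to 0.38) and for the adipocyte list (0.95, others -0.10 to 0.05). None of the 6 was at 24 months. Replicate 1 of that age was highest for the interferon and antigen presentation lists, but neither list passed this limit there. Igtp and H2-K1, whose highest value at 24 months was also in replicate 1, were not among the 36 genes examined. Over all genes tested, replicates 1 to 4 of 24 months passed this limit for 265, 210, 136 and 256 genes. The counts for replicates 1 to 4 of 30 months were 126, 103, 526 and 217.

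Of the 5 genes per direction with the smallest p in each comparison with another tissue, 13 had a late change that differed, by the test of the difference itself. Other genes named above also passed against Lung, such as Lcn2, Clcf1, Myof, Slc6a15, Slc16a9 and Ncbp1, and are not repeated here. Kidney minus Liver was -1.63 for Nt5e, 1.80 for Osbpl3 and 4.93 for Cfd. Kidney minus Lung was -0.68 for Bmi1, -2.29 for mt-Atp8, -0.57 for Lin7c, -0.66 for Ube2d3 and -1.01 for Vma21, and it was 0.57 for Golm1, 0.88 for Thbs3, 1.89 for Scg5, 0.37 for Bcam and 0.69 for Muc1.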

How the results depend on the processing

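The count of genes past an adjusted p of 0.05 at 30 against 24 months was 1. It was 30 with DESeq2 (16 higher, 14 lower), 3 with limma-voom and quality weights, 2 with no filter on low values, and 0 when fitted on 24 and 30 months alone, without replicates 3 and 4 of 30 months, or with a 2-fold minimum. Leaving out 1 library gave 0 to 34: 34 without replicate 1 of 24 months, 0 without replicate 3 or 4 of 24 months or replicate 3 of 30 months, and 1 otherwise, which without replicate 1 of 30 months was another gene, Gm28040. With 0 called, limma-trend still gave 1262 genes at an unadjusted p under 0.05 in the fit on 24 and 30 months alone. The genes DESeq2 added included Lcn2 (0.92, adjusted p = 0.00285), Slc6a15, Ces1d, Clcf1 and Hnf4a. Replicate numbers did not pair the libraries (same-numbered correlations of deviations 0.144, -0.031, -0.073 and 0.044), and the fit with a replicate block called 0 genes, with 2052 at an unadjusted p under 0.05. For Liver the 3 genes became 0 in the fit on 24 and 30 months alone and 1 to 4 with a kidney library left out. For Lung the 274 became 123 and 122 to 349 in the same way, and 77 without both libraries. Over 36 named genes 9 of 684 values had the other sign, none of them of a called gene. Of 817 list medians 56 had the other sign, among them collagens in 7 settings and cell cycle in 6, and 9 moved beyond their spread between libraries. The causes were not tested. At 13.28 to 23.33 M reads, Cdkn2a and other genes under the count filter were not tested.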

Other observations

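The genes Nnat and Igfbp1, with large differences, were singled out after their values were seen, as was Lep of the adipocyte list. Nnat, the imprinted proteolipid neuronatin, had a log2 change of -2.58 (adjusted p = 0.317, limma-trend), and DESeq2 called it at -2.76 (adjusted p = 0.032). Igfbp1, an insulin-like growth factor binding protein, had a log2 change of 1.82 (adjusted p = 0.317), and 2.24 without replicates 3 and 4 of 30 months. Lep, the adipocyte hormone leptin, had values of 18.9, 24.8, 10.2 and 34.9 at 24 months and 3.06, 1.87, 0 and 14.7 at 30 months.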
